A study of Mus musculus with 2 samples.

Results

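Enteric neurons and glia were followed through 8 genes that mark them, Ret, Elavl4, Uchl1, Vip and Nos1 for neurons and Gfap, S100b and Sox10 for glia. The genes were taken by their symbols from a table of FPKM values for 27275 genes, and all 8 had a single row in it. FPKM scales the fragments of a gene to its length and to the sequencing depth, so that levels of different genes can be compared. The table holds 1 library from Spib-deficient mice and 1 from mice labelled wild type, and both were made from proximal small intestine of naive animals. The knockout (KO) library has the genotype Spibfl/flVillin-Cre, in which Cre recombinase under the villin promoter removes the floxed gene in intestinal epithelium. The wild-type (WT) library is labelled Spib+Villin-Cre, so both genotype labels name the Cre transgene. Villin is an epithelial gene, and neurons and glia are not cells in which this Cre is expected to act. The sources used here do not give the age or sex of the mice, nor whether RNA of several mice was combined.

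The enteric nervous system is a network of neurons and glia in the gut wall, laid out as the myenteric plexus between the muscle layers and the submucosal plexus beneath the mucosa. Its cells descend from neural crest, and their precursors need the receptor tyrosine kinase Ret and the transcription factor Sox10 to colonise the gut. Motor neurons that relax the muscle release nitric oxide and vasoactive intestinal peptide (VIP), while excitatory ones release acetylcholine and tachykinins. In whole tissue these cells are a minority, and fewer cells of a type cannot be told apart from less RNA per cell.

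With 1 library per genotype there was no replicate error and no test of the genotypes. Each difference below is one between these libraries. Whole read numbers were recovered from the FPKM values at depths of 17658566 reads for the KO library and 17425640 reads for the WT library. The intervals beside ratios are exact Clopper-Pearson intervals at 95% from those reads. They cover counting error only, not the variation between mice, and without molecular identifiers PCR copies of a molecule are counted as separate reads. Spib, which checks the labels, had 0.592 FPKM in the KO library and 4.94 FPKM in the WT library, 8.34-fold lower (5.70 to 12.6).

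The Vip transcript had the highest level of the 8 in both libraries, and the 300 bases around its transcription start are shown because they hold an element through which cAMP is known to control the human gene. The stretch is chr10:5638968-5639267 on the plus strand of GRCm38.p6, from RefSeq, and runs from 250 bases before the start to 50 bases after it. The capitals mark TGACGTC, a cAMP response element without its last base, which begins at position -79 relative to the start.

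Vip promoter: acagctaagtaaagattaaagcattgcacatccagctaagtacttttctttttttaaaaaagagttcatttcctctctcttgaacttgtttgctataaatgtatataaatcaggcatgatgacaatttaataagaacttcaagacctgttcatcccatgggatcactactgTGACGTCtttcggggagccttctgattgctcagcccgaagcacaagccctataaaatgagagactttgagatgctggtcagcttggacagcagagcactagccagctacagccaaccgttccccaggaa

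A promoter was listed for 6 of the 8 genes, with 9 start sites in all. On either strand, TGACGTC was found in 1 of these 9 promoters, that of Vip, and in 3.21% of the 32851 mouse promoters of the same length. GAGGAA, the purine-rich core that Spib and its relative PU.1 bind, was found in 4 of the 9, those of Vip, Uchl1, Nos1 and Gfap, and in 28.3% of all promoters. These are matches of letters and not binding sites. In the Vip promoter the matches of the 2 motifs do not overlap.

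None of the 8 genes differed by as much as 2-fold between the libraries. On the scale of log2((KO FPKM + 1) / (WT FPKM + 1)), called the log2 ratio from here on, they lay between -0.08 and 0.25 with a median of 0.09. Over all 27275 genes without a filter, 2.03% were past 2-fold, 0.796% higher and 1.24% lower in the KO library, and the median was -0.01. Among the 13479 genes that reached 1 FPKM in at least 1 library, those shares were 1.61% and 2.51%, together 4.12%, and the median was -0.05. Only 3 of the 8 genes, Vip, Uchl1 and Ret, passed that filter. A gene below 1 FPKM in both libraries cannot be 2-fold apart on this scale, here and in the lists below. For Elavl4, Nos1, Gfap, S100b and Sox10 that outcome was therefore fixed in advance, and the unfiltered shares include many such genes. As plain ratios of FPKM, the 8 genes also stayed within 2-fold, and the farthest from 1 was 1.75 for Sox10. The log2 ratio shrinks differences at low levels, so plain ratios of FPKM are given beside it.

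**Figure D1:**
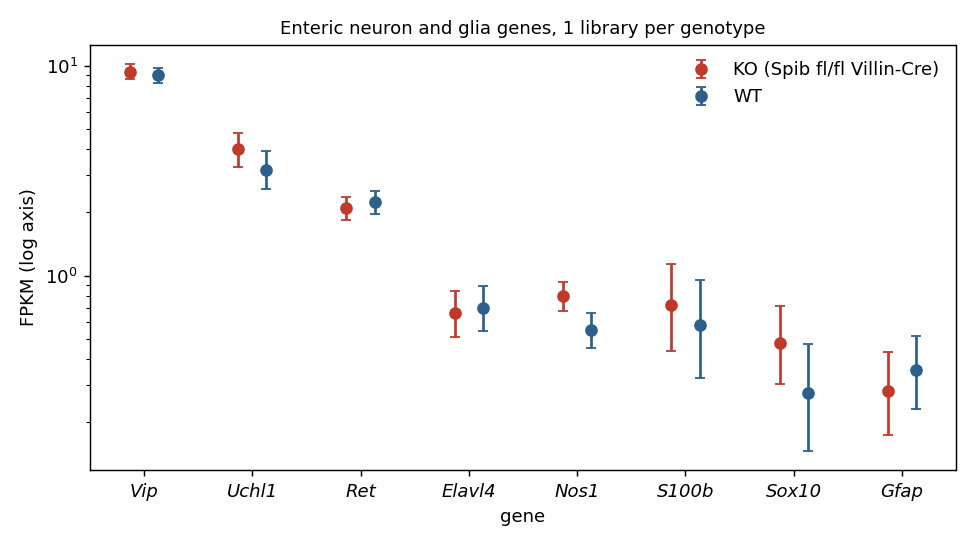
FPKM (log axis) of the 8 neuron and glia genes in the KO library (red, left point of each pair) and the WT library (blue, right point); bars are exact 95% Poisson intervals of the recovered reads and cover counting error only. Vip, at 9.37 FPKM in the KO library and 8.97 FPKM in the WT library, lies above all others, and the bars of Nos1 do not overlap between the libraries.

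Ret is the signalling receptor for the GDNF family of neurotrophic factors and is kept by mature enteric neurons. It lies on the minus strand of chromosome 6 (118151745 to 118197718, mm10, as all coordinates below). Ret had 2.10 FPKM in the KO library from 251 reads and 2.23 FPKM in the WT library from 263 reads. The KO/WT ratio was 0.942 (0.789 to 1.12), so the libraries did not differ beyond counting error. Type 3 innate lymphoid cells also express Ret. The 8 leukocyte markers given further on were lower in sum in the KO library, and the part of such cells in the value of Ret was not tested.

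Elavl4 and Uchl1 mark the neuronal cell body as a whole. Elavl4 (chromosome 4, minus strand, 110203722 to 110351909) encodes HuD, an RNA-binding protein of the family detected by pan-neuronal Hu antibodies. It had 0.662 FPKM in the KO library from 63 reads and 0.703 FPKM in the WT library from 66 reads, with a ratio of 0.942 (0.656 to 1.35). Uchl1 (chromosome 5, plus strand, 66676091 to 66687234) encodes the ubiquitin hydrolase PGP9.5, another pan-neuronal antigen. It had 3.99 FPKM in the KO library from 115 reads and 3.20 FPKM in the WT library from 91 reads, with a ratio of 1.25 (0.939 to 1.66). The antisense gene Uchl1os covers 18.1% of the exonic bases of Uchl1, and reads of the pair cannot be told apart, since no strand setting of the counting is given. Neither pan-neuronal gene differed between the libraries beyond its counting interval.

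Vip and Nos1 belong to the inhibitory motor neurons, and Vip also to secretomotor neurons of the submucosal plexus. Vip (chromosome 10, plus strand, 5639218 to 5647617) encodes the precursor of VIP, which relaxes muscle and drives fluid secretion. It had 9.37 FPKM in the KO library from 563 reads and 8.97 FPKM in the WT library from 532 reads. Its ratio of 1.04 (0.926 to 1.18) was the most precise of the 8, and the interval includes 1. Nos1 (chromosome 5, plus strand, 117781032 to 117958840) encodes neuronal nitric oxide synthase. Nos1 had 0.797 FPKM in the KO library from 157 reads and 0.551 FPKM in the WT library from 107 reads. At 1.45-fold higher (1.13 to 1.87) it was the only gene of the 8 whose counting interval lay wholly on one side of 1. Such intervals were common: of 8191 genes whose reads in both libraries together lay in the same range, 34 to 1095, 10.2% had an interval wholly above 1 and 22.3% an interval wholly below 1, together 32.5%. The antisense gene Gm26995 covers 2.4% of the exonic bases of Nos1. Vip transcript was 11.8 times as abundant as Nos1 transcript in the KO library and 16.3 times in the WT library, per length.

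The glial genes rested on the fewest reads and were the least precise of the 8. Sox10 (chromosome 15, minus strand, 79154908 to 79165240) encodes the transcription factor that keeps neural crest derivatives in the glial lineage. It had 0.480 FPKM in the KO library and 0.275 FPKM in the WT library, from 23 reads in the KO library and 13 in the WT library as the smallest whole numbers with that ratio, and was 1.75-fold higher (0.848 to 3.75). S100b (chromosome 10, plus strand, 76253853 to 76261159) encodes a calcium-binding protein of glial cytoplasm. It had 0.725 FPKM in the KO library from 19 reads and 0.580 FPKM in the WT library from 15 reads, with a ratio of 1.25 (0.602 to 2.64). Gfap (chromosome 11, minus strand, 102887336 to 102900912) encodes the intermediate filament of glia, which gut inflammation can increase. It had 0.282 FPKM in the KO library from 21 reads and 0.354 FPKM in the WT library from 26 reads, with a ratio of 0.797 (0.426 to 1.47). At this depth the counting intervals of Sox10 and S100b include a value 2-fold higher in the KO library, and that of Gfap includes a value 2-fold lower.

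**Figure D2:**
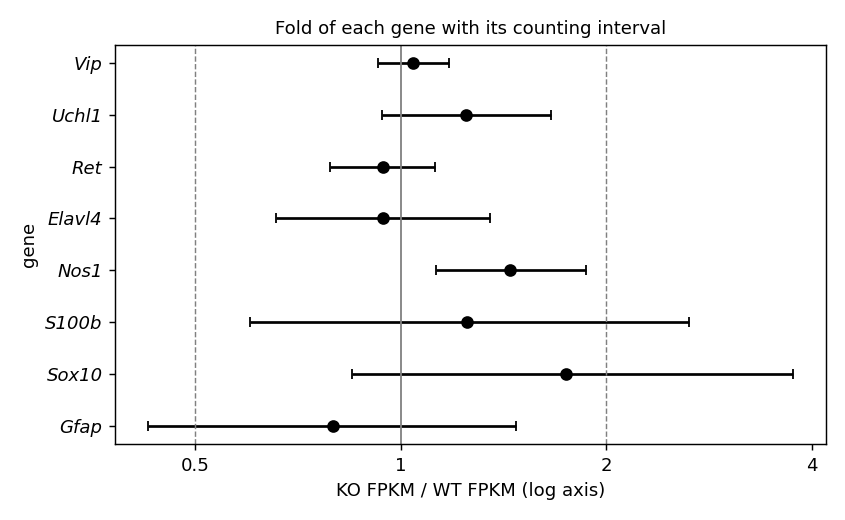
Ratio of KO FPKM to WT FPKM (log axis) for each of the 8 genes, ordered from the highest mean level at the top; bars are exact 95% intervals of counting error and dashed lines mark 2-fold. Nos1, at 1.45 (1.13 to 1.87), is the only gene whose bar does not cross 1, and the glial bars are the widest.

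Ordered by level in the KO library, the genes were Vip, Uchl1, Ret, Nos1, S100b, Elavl4, Sox10 and Gfap. In the WT library the order was Vip, Uchl1, Ret, Elavl4, S100b, Nos1, Gfap and Sox10. The counting intervals of the first 3 separated each from the next gene in both libraries, whereas the intervals of neighbours among the other 5 overlapped. The 5 neuronal genes summed to 16.9 FPKM in the KO library and 15.7 FPKM in the WT library, from 1149 reads in the KO library and 1059 in the WT library. Their summed reads, scaled by depth, gave a ratio of 1.07 (0.984 to 1.17). The 3 glial genes summed to 1.49 FPKM in the KO library and 1.21 FPKM in the WT library, from 63 reads in the KO library and 54 in the WT library, with a ratio of 1.15 (0.788 to 1.69). Glial genes therefore held 8.08% of the FPKM of the 8 genes in the KO library and 7.17% in the WT library.

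**Figure D3:**
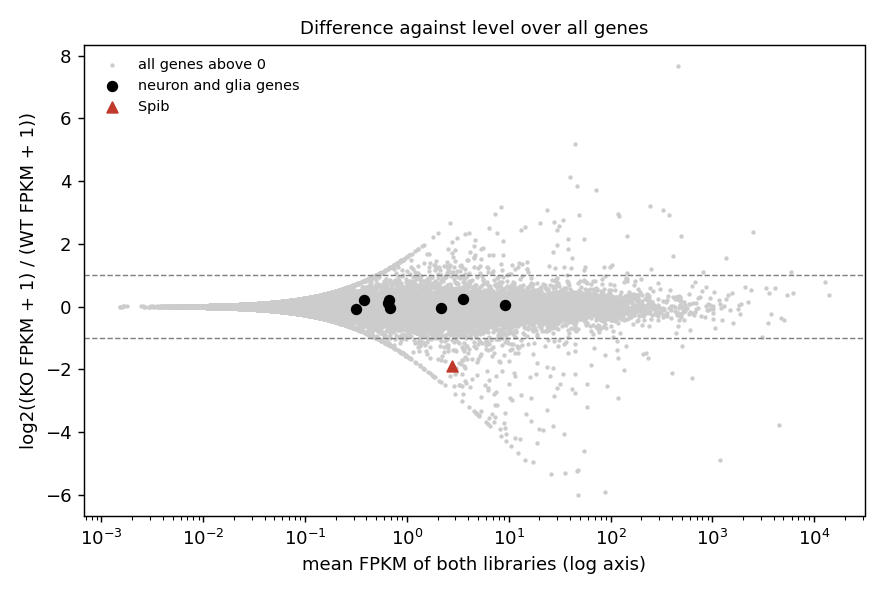
The log2 ratio of every gene above 0 in a library against its mean FPKM (log axis), with the 8 neuron and glia genes as black circles and Spib as a red triangle; dashed lines mark 2-fold. The 8 genes lie between -0.08 and 0.25 in the middle of the cloud, and Spib lies at -1.90.

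Other genes of enteric neurons as a whole also lay within 2-fold on the log2 scale. A list of 28 pan-neuronal genes, which includes Ret, Elavl4 and Uchl1, had 19 genes of at least 1 FPKM. None of the 28 was 2-fold higher or lower on the log2 scale, the log2 ratios spanned -0.27 to 0.33, and the median of the 19 was -0.00, against -0.05 for all genes compared. The granule protein Chgb, which enteroendocrine cells also make, had 36.5 FPKM in the KO library and 38.1 in the WT library. Scg2, another granule protein of both cell types, had 13.8 and 11.2 FPKM in the KO and WT libraries. The neuronal intermediate filament peripherin, Prph, had 4.34 FPKM in the KO library and 3.88 in the WT library, with a ratio of 1.12 (0.875 to 1.44), and gamma-synuclein, Sncg, had 6.25 and 4.78 FPKM in the KO and WT libraries (ratio 1.31, 0.9498 to 1.80). As plain ratios, the neurofilament genes Nefl and Nefm, chosen for mention after their values were seen, were 2.47 (1.04 to 6.48) and 2.04 (1.05 to 4.19), at levels below 1 FPKM in both libraries. The microtubule-associated protein tau, Mapt, picked in the same way, had 0.759 FPKM in the KO library from 101 reads and 1.12 FPKM in the WT library from 147 reads, 1.47-fold lower (1.14 to 1.92). The summed FPKM of the list was 96.3 in the KO library and 91.2 in the WT library.

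Among genes of transmitters and neuropeptides, a few differed by more than any of the 8. Of all 26 such genes, Vip and Nos1 included, 18 had log2 ratios above 0 and 7 below 0, with a median of 0.10, and Tph2 was listed at 0 in both libraries. For the 15 that reached 1 FPKM the median log2 ratio was 0.24, and 12 of the 15 were above 0, as were 41.3% of all genes compared. Chat, Calcb and Grp passed this filter only through the KO library, where they were higher. No gene of the list passed it only through the WT library, so the filter itself raised this median and count. Neuromedin U, Nmu, a peptide of enteric neurons that acts on type 2 innate lymphoid cells, was the only gene of the list past 2-fold on the log2 scale. That count was 4 with a pseudocount of 0.1 FPKM, 3 as TPM, and 0 with a pseudocount of 5 FPKM or a minimum of 5 FPKM. Nmu had 4.10 FPKM in the KO library from 60 reads and 1.11 FPKM in the WT library from 16 reads, 3.70-fold higher (2.10 to 6.88). Its receptor Nmur1, which those lymphoid cells carry and which was picked once its values were known, had 1.70 FPKM in the KO library from 51 reads and 0.880 FPKM in the WT library from 26 reads, 1.94-fold higher (1.19 to 3.23). The other neuromedin U receptor, Nmur2, went the other way, with 0.566 FPKM in the KO library and 0.852 FPKM in the WT library (ratio 0.665, 0.414 to 1.05). Sst, Slc6a4 and Ddc were the most abundant of the list besides Vip, and all are made by epithelial cells as well. Somatostatin, Sst, had 36.5 FPKM in the KO library and 36.4 in the WT library, the serotonin transporter Slc6a4 had 24.5 and 20.1 FPKM in the KO and WT libraries, and the decarboxylase Ddc had 19.2 and 16.4 FPKM in the KO and WT libraries.

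Further transmitter genes, chosen for mention after their values were seen, went in both directions. Choline acetyltransferase, Chat, which makes acetylcholine in neurons and in tuft cells, had 1.07 FPKM in the KO library and 0.225 FPKM in the WT library, 4.75-fold higher (2.45 to 10.1). Slc18a3, the vesicular acetylcholine transporter, lies within the Chat locus, so reads of the pair may have been divided between them. It had 0.282 FPKM in the KO library and 0.571 FPKM in the WT library, with a ratio of 0.493 (0.225 to 1.03). Tuft cell genes were higher in the KO library beside Chat. Of 8 tuft cell markers, all 8 had higher values in the KO library, and 6 were at least 2-fold higher on the log2 scale. Over all genes that share was 0.796% without a filter and 1.61% among those compared. Some of the 8 markers reached 1 FPKM only in the KO library, where they were higher. With a pseudocount of 5 FPKM, 2 of the 8 markers were at least 2-fold higher. The summed FPKM of the 8 was 58.8 in the KO library and 10.6 in the WT library. The part of tuft cells in the value of Chat was not tested. Calcb, the neuronal form of calcitonin gene-related peptide in the gut, had 2.11 FPKM in the KO library and 0.999 FPKM in the WT library, 2.11-fold higher (1.25 to 3.67). The tachykinin gene Tac1, which encodes substance P, had 2.199 FPKM in the KO library and 3.61 FPKM in the WT library, 1.64-fold lower (1.32 to 2.06). Enterochromaffin cells express Tac1 too. Tph1, the serotonin-synthesis enzyme of those cells, had 1.64 FPKM in the KO library and 1.61 FPKM in the WT library (ratio 1.02, 0.824 to 1.27). The 12 enteroendocrine markers, of which 6 had log2 ratios above 0 and 6 below, summed to 136 FPKM in the KO library and 179 FPKM in the WT library. The part of these cells in the value of Tac1 was not tested. Gastrin-releasing peptide, Grp, rested on 10 reads in the KO library and 3 in the WT library, 3.29-fold higher (0.847 to 18.6). Neuropeptide Y, Npy, had 1.501 FPKM in the KO library and 2.64 FPKM in the WT library, with a ratio of 0.569 (0.280 to 1.12).

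**Figure D4:**
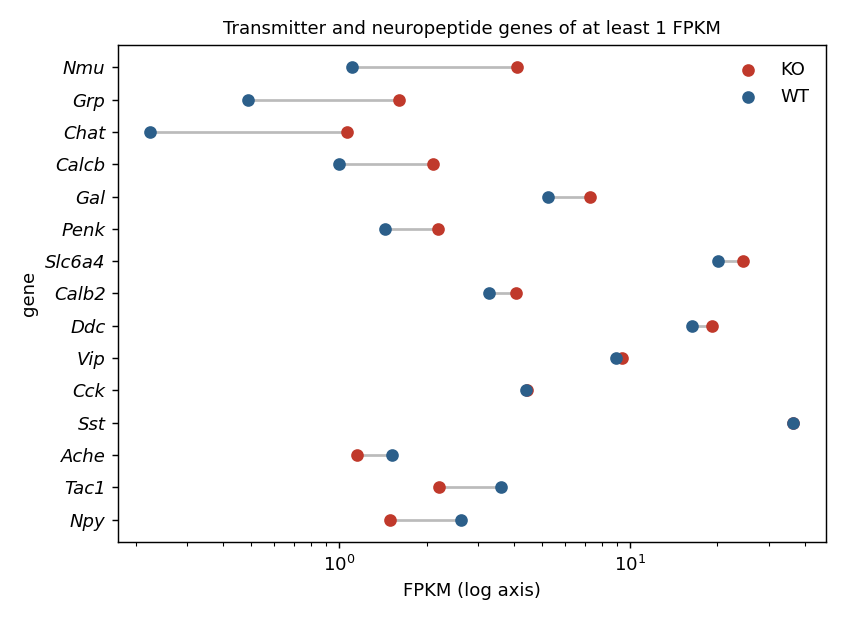
FPKM (log axis) of the 15 transmitter and neuropeptide genes that reached 1 FPKM in at least 1 library, KO in red and WT in blue, joined by a grey line and sorted by log2 ratio. Nmu, at 4.10 FPKM in the KO library and 1.11 FPKM in the WT library, stands at the top, and Vip and Sst are among those that nearly coincide. Npy, Tac1 and Ache are lower in the KO library, with a KO/WT ratio of 0.754 (0.570 to 0.995) for Ache.

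Enteric glia were described further by 21 genes that include Sox10, S100b and Gfap. Of these, 9 reached 1 FPKM, none of the 21 was 2-fold higher or lower on the log2 scale, and the median of the 9 was 0.00. The cadherin gene Cdh19 had 1.42 FPKM in the KO library and 0.845 FPKM in the WT library, 1.68-fold higher (1.22 to 2.33), and the nucleotidase gene Entpd2 had 3.65 and 5.39 FPKM in the KO and WT libraries, with a ratio of 0.676 (0.540 to 0.844). Cdh19 was picked once its values were known. Erbb3, the neuregulin receptor of glial precursors, is expressed by epithelium as well and led the list at 69.2 FPKM in the KO library and 84.4 FPKM in the WT library. L1cam, an adhesion molecule, had 8.54 FPKM in the KO library and 8.51 in the WT library, and myelin basic protein Mbp had 7.51 and 7.43 FPKM in the KO and WT libraries. The summed FPKM of the list, 102 in the KO library and 117 in the WT library, was thus mostly that of Erbb3.

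Of the ligand and co-receptor genes of Ret, only neurturin had a higher level than Ret itself, in both libraries. In the WT library their counting intervals overlapped, at 1.84 to 3.38 FPKM for neurturin and 1.97 to 2.52 FPKM for Ret. GDNF binds Gfra1 and neurturin binds Gfra2 before the complex activates Ret. Gdnf had 0.678 FPKM in the KO library and 0.556 FPKM in the WT library (ratio 1.22, 0.613 to 2.46), and its co-receptor gene Gfra1 had 1.003 and 0.870 FPKM in the KO and WT libraries (ratio 1.15, 0.851 to 1.57). Neurturin, Nrtn, had 3.65 FPKM in the KO library and 2.52 FPKM in the WT library (ratio 1.45, 0.976 to 2.16), and its co-receptor gene Gfra2 had 0.867 and 1.13 FPKM in the KO and WT libraries (ratio 0.769, 0.527 to 1.12). For both ligand and co-receptor pairs, the intervals included 1. Artn and Pspn, the other ligands, stayed below 0.5 FPKM in both libraries. Their co-receptor genes went in opposite directions. Gfra3, which binds artemin, had 0.455 FPKM in the KO library and 0.893 FPKM in the WT library (ratio 0.509, 0.260 to 0.960), while Gfra4, which binds persephin, had 0.863 and 0.424 FPKM in the KO and WT libraries (ratio 2.03, 1.09 to 3.96).

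A further set of genes is needed for crest cells to colonise the gut, and several cause Hirschsprung disease when mutated. Endothelin-3, Edn3, had 13.1 FPKM in the KO library and 12.8 FPKM in the WT library, and its receptor Ednrb had 8.64 and 8.15 FPKM in the KO and WT libraries, with ratios of 1.02 (0.934 to 1.12) and 1.06 (0.945 to 1.19). The converting enzyme Ece1 had 20.5 FPKM in the KO library and 18.6 FPKM in the WT library. The transcription factor Zeb2 had 1.18 FPKM in the KO library and 1.31 FPKM in the WT library, and Kif1bp, which supports axon growth, had 3.54 and 4.04 FPKM in the KO and WT libraries. Neuregulin 1, Nrg1, a ligand of the glial receptors, had 1.54 FPKM in the KO library and 0.826 FPKM in the WT library, 1.86-fold higher (1.52 to 2.29). Among the 18 genes of this list, Ret and Sox10 included, 11 reached 1 FPKM, none was 2-fold higher or lower on the log2 scale, and the median was 0.03.

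On the receiving side, the receptors and targets of VIP and nitric oxide lay within 2-fold, also as plain ratios, with Vipr2 the farthest from 1. The counting intervals of Gucy1a3 (ratio 1.22, 1.05 to 1.41) and Pde5a (ratio 1.12, 1.06 to 1.18) lay above 1 and that of Vipr1 below 1. Those of the other genes of this list included 1. The VIP receptor gene Vipr1, which epithelium expresses, had 66.4 FPKM in the KO library and 70.1 FPKM in the WT library (ratio 0.947, 0.916 to 0.979). Vipr2, the receptor of muscle, had 0.520 FPKM in the KO library and 0.759 FPKM in the WT library (ratio 0.686, 0.449 to 1.04), and the receptor gene Adcyap1r1 had 0.901 and 1.01 FPKM in the KO and WT libraries. The subunits of soluble guanylate cyclase, the receptor of nitric oxide, had 3.37 FPKM (Gucy1a3) and 6.79 FPKM (Gucy1b3) in the KO library and 2.77 FPKM (Gucy1a3) and 6.49 FPKM (Gucy1b3) in the WT library. The minor subunit gene Gucy1a2 had 0.162 FPKM in the KO library and 0.164 FPKM in the WT library. Downstream of cyclic GMP, the kinase Prkg1 had 0.886 FPKM in the KO library and 1.09 FPKM in the WT library, its substrate Mrvi1 had 6.28 and 6.47 FPKM in the KO and WT libraries, and the phosphodiesterase Pde5a had 19.4 and 17.4 FPKM in the KO and WT libraries. None of the 9 genes was 2-fold higher or lower, and the median of the 7 that reached 1 FPKM was -0.04.

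Of 16 receptor genes of other enteric transmitters, 12 had log2 ratios above 0 and 4 below 0, none of them 2-fold higher or lower, while 39.1% of all genes of the table were above 0. The median was 0.08 over the 16 and 0.25 over the 8 that reached 1 FPKM. Tacr1, Chrm3 and Nmur1 reached it only in the KO library and no gene only in the WT library, so the filter itself raised the second median. Ramp1, a subunit of the receptor of calcitonin gene-related peptide, had 6.91 FPKM in the KO library and 4.52 FPKM in the WT library, 1.53-fold higher (1.30 to 1.81). Its partner Calcrl had 4.32 and 4.13 FPKM in the KO and WT libraries (ratio 1.05, 0.901 to 1.21). The muscarinic receptor Chrm2 of smooth muscle had 4.30 FPKM in the KO library and 3.67 FPKM in the WT library (ratio 1.17, 1.02 to 1.35), and the serotonin-gated channel Htr3a had 1.74 and 1.32 FPKM in the KO and WT libraries (ratio 1.32, 0.891 to 1.95).

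Markers of muscle and interstitial cells, which surround the myenteric plexus, had higher summed levels in the KO library beside these values. The 12 smooth muscle markers summed to 674 FPKM in the KO library and 613 FPKM in the WT library, a ratio of 1.10, and 9 of the 12 had log2 ratios above 0. Acta2 had 208 FPKM in the KO library and 210 FPKM in the WT library and Myh11 had 132 and 129.5 FPKM in the KO and WT libraries. The light chain kinase Mylk had 65.8 FPKM in the KO library and 62.7 FPKM in the WT library, while enteric actin Actg2 had 114 and 78.6 FPKM in the KO and WT libraries. Tagln, another muscle gene, picked once its values were known, was at only 0.342 FPKM in the KO library and 0.375 FPKM in the WT library, and the cause of these low values was not tested. The 6 markers of interstitial cells of Cajal and of PDGFRA-positive cells summed to 33.9 FPKM in the KO library and 25.9 FPKM in the WT library, and all 6 were above 0. The 2 most abundant were little above 1, with a ratio of 1.15 (1.03 to 1.29) for the purine receptor P2ry1 and 1.12 (1.04 to 1.21) for Pdgfra. Kcnn3 and Etv1 had ratios of 1.12 and 1.09, and their intervals included 1. Kit, the receptor that pacemaker cells need, was 1.78-fold higher (1.62 to 1.95) and the pacemaker chloride channel Ano1 was 1.63-fold higher (1.43 to 1.86). The part of pacemaker cells in the values of Kit and Ano1 was not tested. Expressed per 1000 FPKM of the smooth muscle markers, Nos1 was at 1.18 in the KO library and 0.898 in the WT library, 1.32-fold higher, and Vip was at 13.9 and 14.6 in the KO and WT libraries. Per 1000 FPKM of the epithelial markers, Nos1 was 1.44-fold higher. The muscle sum depends most on its abundant genes, of which Actg2 differed more between the libraries than Acta2 or Myh11. The part of muscle content in the value of Nos1 was not tested.

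Of the other tissue components, the fibroblast and epithelial markers differed little in sum. The endothelial sum was lower in the KO library, with a KO/WT ratio of 0.889, and the leukocyte, tuft and enteroendocrine sums differed more. The summed FPKM was 55.4 in the KO library and 62.2 in the WT library for 7 endothelial markers, 151 and 149.5 for 6 fibroblast markers in the KO and WT libraries, and 6723 and 6673 for 8 epithelial markers in the KO and WT libraries. The 8 leukocyte markers summed to 31.6 FPKM in the KO library and 44.6 FPKM in the WT library, and the B cell receptor gene Cd79a, the only one past 2-fold, had 3.54 FPKM in the KO library and 9.10 FPKM in the WT library. Their part in the values of the 8 neuron and glia genes was not tested.

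**Figure D5:**
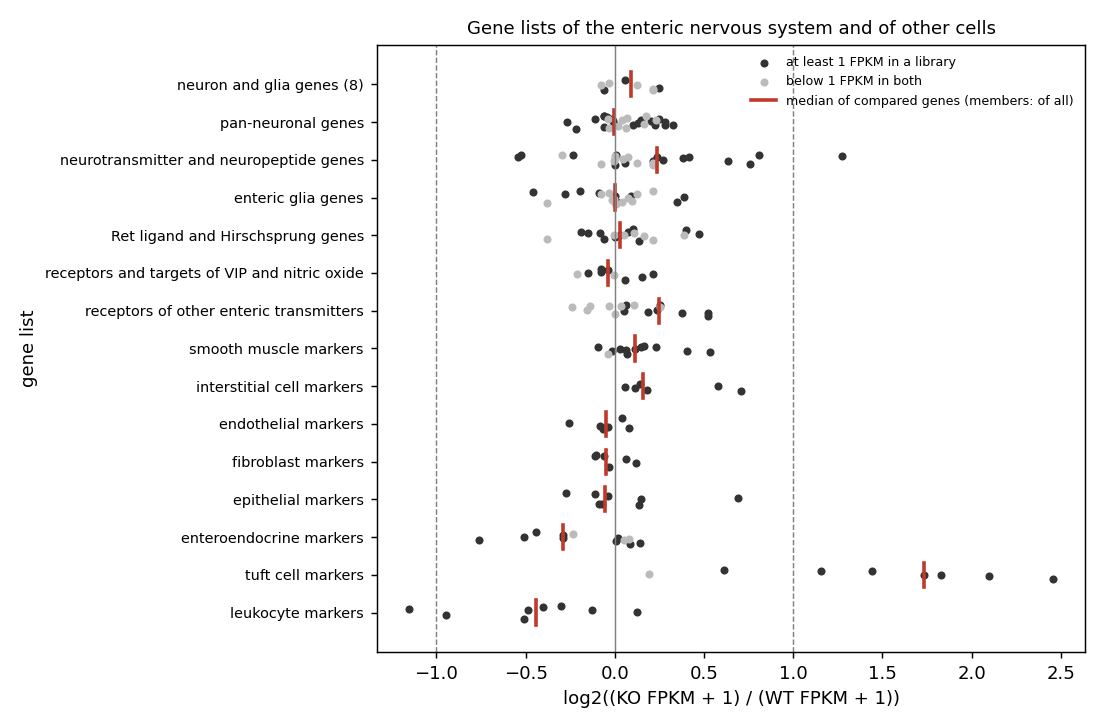
The log2 ratio of each gene (points, dark where the gene reached 1 FPKM in a library and grey where it did not) in the lists of the enteric nervous system and of other cell types, with red bars at the median of the dark points (of all 8 points in the top row); dashed lines mark 2-fold. All 8 neuron and glia genes lie within 2-fold, Nmu is the only gene of the neuronal and glial lists beyond that on this scale, and the tuft cell list lies to the right with a median of 1.74.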

How the data were processed

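RNA was taken up in TRIzol and cDNA amplified by SMART-Seq II, per the labels' protocols. The deposited table holds FPKM values, which the authors computed per gene. The submitters' processing notes name Bowtie2 2.2.3, HTSeq 0.6.0 and mm10 but no roles. The sources used here give no annotation, read layout or strand setting. Each column was matched to a library by its title.

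Gene identifiers were joined to GENCODE M21 (GRCm38, the same assembly as mm10), which held 27222 of 27275. FPKM multiplied by exon length stepped in whole reads, within 0.01, for 90.7% of values above 0 in the KO library and 90.6% in the WT library, which gave the depths. For other genes, such as Sox10, the smallest whole pair with the observed ratio was used, which can be too few reads and too wide an interval. For a 1 kb transcript, 3 reads are 0.170 FPKM in the KO library and 0.172 FPKM in the WT library.

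The log2 ratio uses a pseudocount of 1 FPKM. Genes with at least 1 FPKM in at least 1 library were compared, so a gene can pass only through the library where it is higher. Members and 14 further lists were chosen with earlier results of these data known, and 3 list symbols were matched through synonyms. Named are the 8 genes and, of each list, the genes past 2-fold and the 4 of highest mean FPKM. Also named are genes of the Ret ligand and Hirschsprung list, of the VIP and nitric oxide list, and those said to be chosen afterwards. Kcnn3, Etv1, Nmur2, Tph1, Tacr1, Chrm3 and Ache are named besides. Some genes that the rule would name are not reported here. For epithelial, endothelial, fibroblast, enteroendocrine, tuft and leukocyte lists, sums and counts stand for single genes. With 2 libraries every gene correlates at 1 or -1 with another, so no gene is named for a similar pattern. Python 3.11.15, pandas 2.3.3, numpy 2.4.6 and scipy 1.17.1 were used.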

Additional observations from a re-analysis of the deposited data

How the results depend on the processing

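The log2 ratio of each of the 8 genes kept its sign under 4 alternatives, pseudocounts of 0.1 and 5 FPKM, rescaling to TPM and median-centring. The pseudocounts could not have changed a sign, since the same amount is added to both values. The rescalings were small: TPM moved the log2 of every plain ratio by -0.03, and median-centring multiplied the KO values by 1.04. Sox10 ranged from 0.06 to 0.63, Nos1 from 0.06 to 0.46, Uchl1 from 0.13 to 0.31 and Gfap from -0.25 to -0.02. No gene of the 8 reached 2-fold under any of the 4 alternatives. That outcome was fixed by the plain ratios, of which the farthest from 1 was 1.75 for Sox10. A pseudocount only draws a ratio towards 1, and the rescalings were too small to bring 1.75 to 2-fold. Dropping the filter or raising it to 5 FPKM leaves the ratio of a gene as it is, so neither could bring a gene to 2-fold. Over all genes compared, 217 were at least 2-fold higher and 338 at least 2-fold lower in the KO library. These counts were 355 and 575 at the lower pseudocount, 61 and 122 at the higher, 537 and 791 as TPM, where values are larger and the pseudocount of 1 weighs less, and 97 and 193 at a minimum of 5 FPKM. The median of the pan-neuronal list was 0.28 at that minimum, where few of its genes were left. Leaving out a library was not possible with 1 per genotype. No paired analysis was possible because each genotype has 1 library and no test was made. Depth limits the glial genes most, with 13 to 26 reads per library.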
